A study of Homo sapiens with 16 samples.

Results

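The set described here holds 60 genes of mitosis and the kinetochore, found by symbol among the 61906 genes listed for each of 2 human cell lines. Every one of the 60 symbols matched 1 gene in both tables, and all 60 passed the filter on low counts in every fit. The lines were HEK-293T, which derives from embryonic kidney and expresses the large T antigen of SV40, and HT-1080, which derives from a fibrosarcoma. Each was transfected with siRNA at 20 nM, directed at the RNA-binding splicing regulator HNRNPH1 (siHNRNPH1), or serving as negative control (siNegative), and RNA was taken at 48 h from 3 biological replicates per group. Both groups of a line received siRNA by lipid transfection, so no untransfected cells enter any comparison. Short-read libraries gave expected counts per transcript, and 1 IsoSeq pool of full-length cDNA per group gave transcript models.

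Mitosis genes are switched on in waves. CDK1 with its cyclins starts mitosis, condensin compacts the chromosomes, and kinetochores built on the centromere attach them to the spindle, which kinesin motors shape. The spindle checkpoint holds back the anaphase-promoting complex until all chromosomes are attached, and the chromosomal passenger complex and centralspindlin then guide cytokinesis. Most of these genes are transcribed from late S phase to mitosis, under the MuvB complexes with B-MYB and FOXM1, which bind a short promoter element called the cell cycle genes homology region (CHR). In bulk RNA, fewer cells in mitosis and less RNA per mitotic cell cannot be told apart.

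The promoters show the element that many members share, and 9 of them are printed here because they are short, well-known examples from different functional classes. Each line gives 30 bases on the gene's own strand from the RefSeq promoter table (GRCh38.p14), with the CHR letters, TTTGAA on either strand (TTTGAA or TTCAAA), in capitals.
CDK1 promoter at chr10:60778453-60778482 (plus strand): tagcgcggtgagTTTGAAactgctcgcact
CCNB2 promoter at chr15:59105105-59105134 (plus strand): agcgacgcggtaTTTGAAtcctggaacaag
PLK1 promoter at chr16:23678848-23678877 (plus strand): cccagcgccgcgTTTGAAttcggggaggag
BUB1B promoter at chr15:40161034-40161063 (plus strand): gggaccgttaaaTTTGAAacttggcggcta
CDC20 promoter at chr1:43358904-43358933 (plus strand): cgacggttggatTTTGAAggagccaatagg
KIF23 promoter at chr15:69414282-69414311 (plus strand): ctgattggcccgTTTGAAatgcgccaggcg
CDCA8 promoter at chr1:37692481-37692510 (plus strand): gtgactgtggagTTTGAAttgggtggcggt
MKI67 promoter at chr10:128126435-128126464 (minus strand): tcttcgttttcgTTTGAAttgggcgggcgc
PRC1 promoter at chr15:90994538-90994567 (minus strand): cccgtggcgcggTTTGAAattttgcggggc
The first base of the printed element lay 13 bases upstream of the start site in CDK1, 29 in CCNB2, PLK1 and MKI67, 23 in BUB1B and CDCA8, 65 in CDC20, 55 in KIF23 and 20 in PRC1. Further matches lay at -161, -69 and 9 relative to the start site in CDK1, at -178 in CDC20 and at -47 in MKI67.

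Of the 60 members, 52 had an entry in that table, which covers 250 bases before to 50 after each start site. The CHR letters were present in 35 of the 52 (67.3%), in 4961 of all 27305 genes with an entry (18.2%) and in 2 of 28 genes of a list of G1/S genes (7.14%). The difference lay close to the start site. In the 50 bases before the start site, 22 of the 52 members (42.3%) had a CHR, against 3.22% of all genes and 0 of the 28 G1/S genes, whereas in the most distant 50 bases the shares were 3.85% for members and 4.58% for all genes. The letters CCAAT on either strand (CCAAT or ATTGG), known as the core of the site of the factor NF-Y, were present in 42 of the 52 members (80.8%), 18 of the 28 G1/S genes (64.3%) and 39.7% of all genes. At least 2 such matches in 1 window were found in 48.1% of the members and 12.8% of all genes. These matches describe letters only and were not tested as binding sites.

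**Figure D1:**
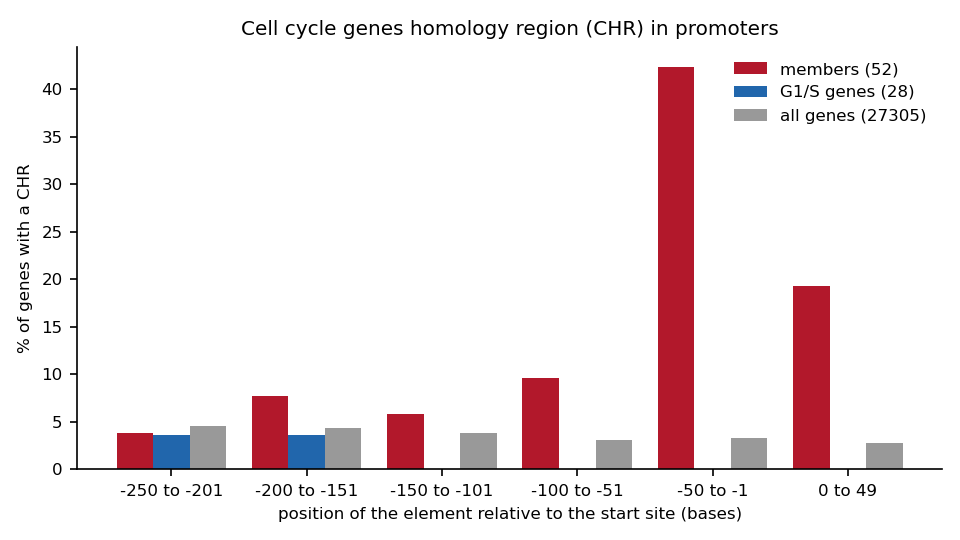
Share of genes (percent, vertical axis) with the CHR letters in each 50-base bin of the promoter, by position relative to the start site, for 52 members, 28 G1/S genes and all 27305 genes with a RefSeq promoter entry. The members peak at 42.3% in the bin just upstream of the start site, where all genes stand at 3.22%.

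The HEK-293T libraries held 107745653 to 121026216 expected counts and the HT-1080 libraries 27304426 to 32653160. HNRNPH1 itself stood at 1107, 1105 and 1121 CPM (expected counts per 1000000 of the library's total) in the HEK-293T siNegative libraries and at 234, 376 and 394 in siHNRNPH1, and at 635, 606 and 617 against 232, 231 and 228 CPM in HT-1080, so the knockdown was present in each library of both lines. Markers fixed for each line told the lines apart only in part: CD44 was at 3129, 2876 and 3106 CPM in HT-1080 controls and at 1.66, 1.89 and 1.51 in HEK-293T, and NEFM at 252, 270.3 and 252 CPM in HEK-293T controls and at most 0.0330 in HT-1080, but NEFL and COL6A1 were present in both and SOX11 and PAX2 were low in both. CPM values are not scaled by transcript length, so levels are compared only within a gene.

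Replicate 1 of HEK-293T siHNRNPH1 stood apart from the rest of its group. Against the mean of the other 2 siHNRNPH1 libraries, it held less KIF14 (log2 ratio -2.31), ASPM (-2.14), INCENP (-1.68) and KIF20B (-1.64), and more PTTG1 (1.09), CDC20 (0.97) and SPC24 (0.95). Its deviation reached 1 log2 unit for 14 members, and in none of the other 11 libraries did any member deviate that far. The deviation went with the length of the IsoSeq models of the gene in the HEK-293T siNegative pool, which may be partial: over 57 members with a multi-exon model, Pearson r was -0.52 and Spearman rho -0.56, a description across genes of 1 library. The 14 members with the shortest models had a median deviation of 0.32 and the 14 with the longest one of -0.89. A smaller deviation of the same kind was found in HT-1080 siNegative replicate 2 (Pearson r -0.65, Spearman rho -0.70), where ASPM was lowest at -0.46 and SPC24 highest at 0.30. HEK-293T counts over all members and over each list are therefore given with and without siHNRNPH1 replicate 1. So are the HEK-293T fold changes printed for members whose sign turned on this library. Other fold changes may be given from 1 of these fits only, which is named there. Replicate 1 was singled out by its values. The p-values without it rest on the other 2 siHNRNPH1 libraries and leave out the spread that replicate 1 adds.

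**Figure D2:**
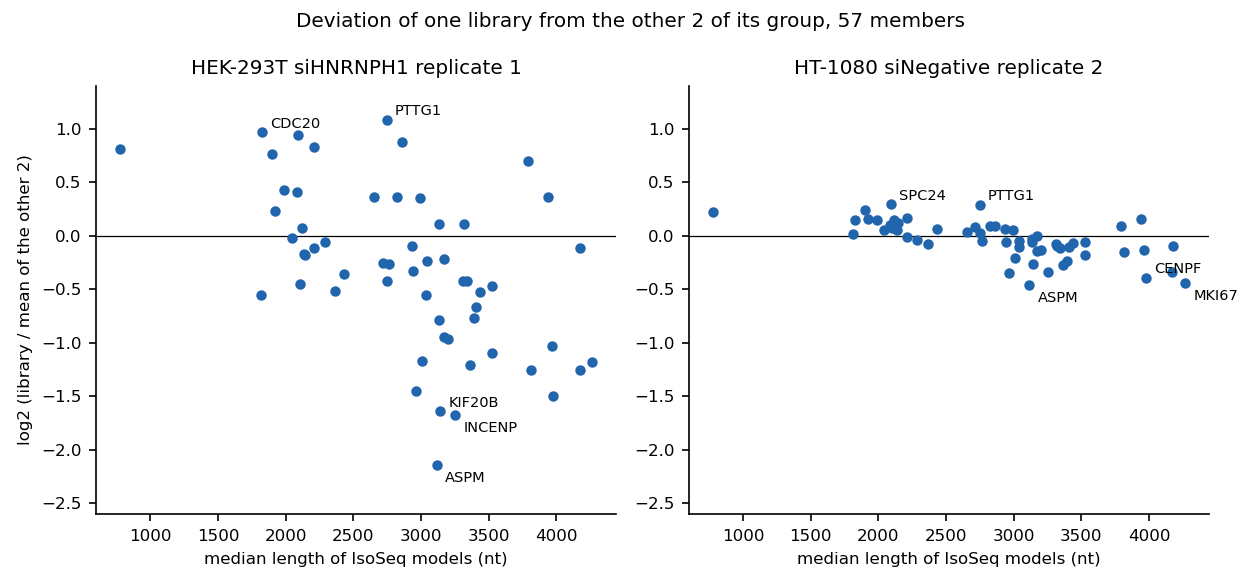
Log2 ratio of 1 library to the mean of the other 2 of its group (vertical axis) against the median length of the gene's IsoSeq models in nucleotides (horizontal axis), 1 point per member, for the 2 libraries named above. In HEK-293T siHNRNPH1 replicate 1 the ratios of the plotted members run from -2.14 (ASPM) to 1.09 (PTTG1); in HT-1080 siNegative replicate 2 they stay between -0.46 and 0.30.

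The first comparison asked what the siRNA did to these genes in HT-1080. All 60 members fell, 55 of them by at least 1 log2 unit, with a median log2 fold change of -1.50 and a range from -2.24 (TPX2) to -0.75 (INCENP). In all 60 the 3 siHNRNPH1 libraries lay below the 3 siNegative libraries, and the siHNRNPH1 mean was 22.1% to 62.1% of the siNegative mean (median 37.0%). Over all 16145 genes tested, 32.6% were called lower and 32.7% higher, and the median log2 fold change was 0.01. With a limit of at least 1 log2 unit in either direction, 2514 of the 16145 genes were called. The share of all genes whose groups do not overlap was not computed. The test here and below is edgeR's quasi-likelihood F test, two-sided, with Benjamini-Hochberg adjustment over all genes tested and a threshold of 0.05. Replicate spread was small beside these changes: the coefficient of variation of a member over 3 libraries had a median of 5.42% in siNegative and 3.97% in siHNRNPH1.

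In HEK-293T the same siRNA gave a far smaller and mixed pattern. With all 6 libraries, 3 members were lower and 0 higher: TPX2 (log2 fold change -0.82, edgeR adjusted p = 0.0159), HMMR (-0.82, adjusted p = 0.0291) and CENPA (-0.56, adjusted p = 0.0425). Among all 19966 genes tested, 4.88% were called lower and 5.12% higher, so 3 of 60 is close to the background. At an unadjusted p under 0.05, 8 members passed, and the DESeq2 fit called 8, all lower, against 9.55% of all genes lower and 10.4% higher in that fit. None of the 3 calls remained when any 1 of the other 5 libraries was left out, and calls over all genes fell from 1997 to between 0 and 639 in those fits, while the fold change of TPX2 stayed at -0.84 to -0.78. Without siHNRNPH1 replicate 1, edgeR called 36 members lower, 10 higher and 14 neither, against 31.3% of all 20329 genes lower and 30.5% higher. No member moved by 1 log2 unit there, and the members' median was -0.11, beside -0.00491 for all genes. The lowest 2 were again TPX2 (-0.89) and HMMR (-0.69), and the highest were MKI67 (0.40) and BUB1B (0.36). The sign of the fold change differed between the fits with and without replicate 1 in 17 of the 60 members, and 10 of these were among the 46 calls. By CPM values, which are not TMM scaled, siHNRNPH1 lay wholly below siNegative in 19 members, wholly above in 4 and overlapped in 37. Without replicate 1 these counts were 30, 17 and 13. The matching shares over all genes were not computed, so these counts are not read as a trait of the members.

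The difference between the lines was tested directly as the cell line by siRNA interaction over all 12 libraries. It was negative, meaning a stronger fall in HT-1080, for all 60 members, and 52 of them passed the test, 48 with a difference of at least 1 log2 unit. The median difference was -1.41. Of all 21276 genes, 10.8% had a lower and 8.13% a higher value in HT-1080 by this test. The 8 members that did not pass were CENPF, KIF14, KIF20B, CENPE, INCENP, SMC2, ASPM and ECT2, whose values in HEK-293T siHNRNPH1 replicate 1 were -2.31 to -1.25 log2 units from the mean of the other 2 libraries. Without that library all 60 passed, against 26.4% of 19447 genes lower and 22.7% higher, and the median was -1.43.

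**Figure D3:**
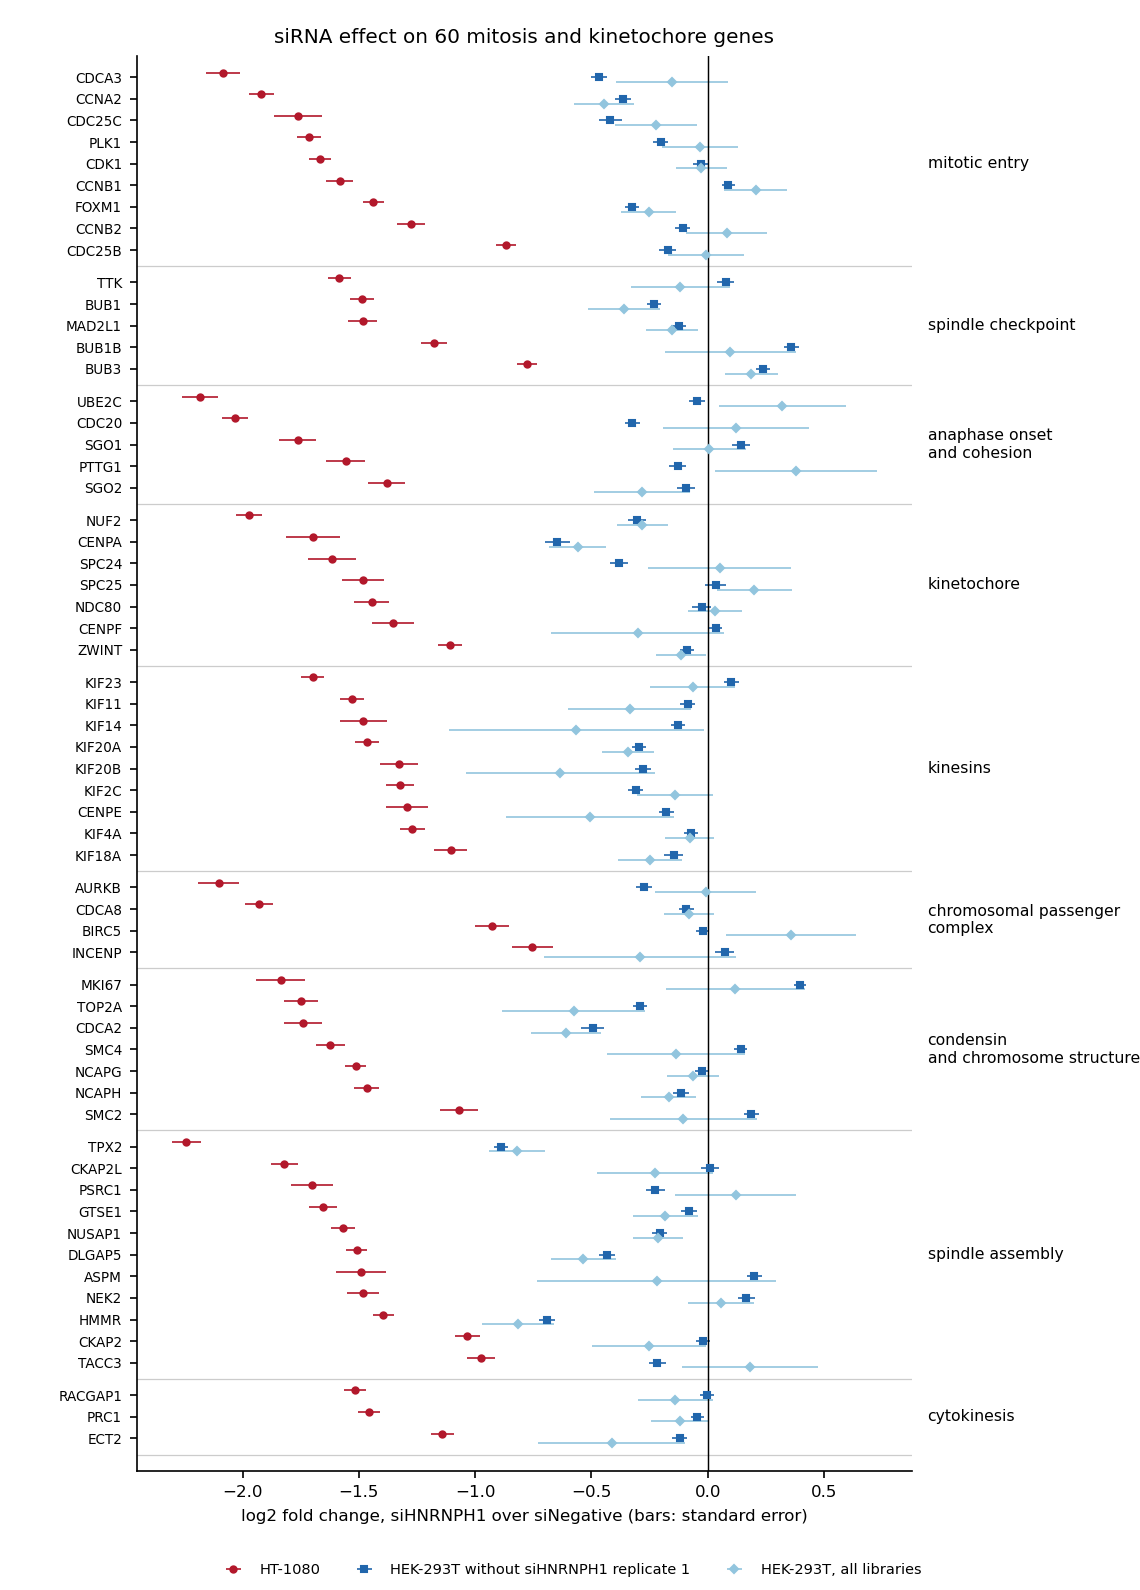
Log2 fold change of siHNRNPH1 over siNegative (horizontal axis) with its standard error from edgeR for each of the 60 members, grouped by function. Red points (HT-1080) run from -2.24 to -0.75, and dark blue points (HEK-293T without siHNRNPH1 replicate 1) from -0.89 to 0.40; light blue points show the 6-library HEK-293T fit.

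Functional classes fell by similar amounts in HT-1080. Class medians of the log2 fold change were -1.76 for anaphase onset and cohesion, -1.67 for mitotic entry, -1.62 for condensin and chromosome structure, -1.51 for spindle assembly, -1.48 for the spindle checkpoint, -1.48 for the kinetochore, -1.46 for cytokinesis, -1.43 for the chromosomal passenger complex and -1.33 for kinesins. The range within every class but cytokinesis was wider than that between these medians, and no test between classes was run. Members with a CHR in the promoter table and those without one had medians of -1.51 (35 members) and -1.48 (17 members). In HEK-293T without replicate 1, these medians were -0.09 and -0.18.

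Among the 9 genes of mitotic entry, CDCA3 changed most and CDC25B least in HT-1080. CDCA3, which directs the degradation of the CDK1 inhibitor WEE1, was at 47.5, 50.8 and 48 CPM in siNegative and 12.9, 12.4 and 10.8 in siHNRNPH1, a log2 fold change of -2.09 ± 0.07 (SE, n = 3 per group, edgeR adjusted p = 1.78e-08). CDC25B, a phosphatase that activates CDK1, went from 162, 168 and 161 to 91.9, 96.6 and 94 CPM (-0.87 ± 0.04). The 2 groups were well apart in both genes. CDK1, the kinase at the centre of mitotic entry, held 109.9, 112 and 106 CPM in siNegative and 35.6, 36.9 and 35.6 in siHNRNPH1 of HT-1080 (-1.67). In HEK-293T it held 149, 143 and 144 against 139, 143 and 154 CPM (-0.03, adjusted p = 0.899), and the groups overlapped. Its interaction was -1.71 ± 0.11 (edgeR adjusted p = 6.11e-06), and -1.69 without replicate 1. The cyclins CCNA2 (-1.92), CCNB1 (-1.58) and CCNB2 (-1.27) fell in HT-1080, as did the kinase PLK1 (-1.72), the phosphatase CDC25C (-1.76) and the transcription factor FOXM1 (-1.44). In HEK-293T 0 of the 9 were called with all 6 libraries, and 1 had an unadjusted p under 0.05. Without replicate 1, 7 of the 9 were lower (CCNA2 -0.36, CDC25C -0.42, CDCA3 -0.47), 1 was higher (CCNB1 0.09) and CDK1 was not called. The shares over all genes in that fit were 31.3% lower and 30.5% higher. CCNB2, 1 of the 7, was at -0.11 there and at 0.08 with all 6 libraries.

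The 5 spindle checkpoint genes fell in HT-1080, with TTK at one end and BUB3 at the other. TTK, the kinase that starts checkpoint signalling, was at 50.3, 48.1 and 49.9 CPM in siNegative and 17.3, 17.5 and 17.1 in siHNRNPH1 (-1.58 ± 0.05). BUB3, the partner of both BUB1 and BUB1B, went from 256, 270.3 and 255 to 160.0, 159.7 and 158 CPM (-0.78 ± 0.04), so it kept the larger part of its RNA. In HEK-293T the BUB3 values were 198, 193 and 198 in siNegative and 202, 237 and 246 in siHNRNPH1, with all 3 above the control libraries. The HEK-293T fit did not call it (0.19, edgeR adjusted p = 0.357), and without replicate 1 it rose (0.24, adjusted p = 2.9e-07). BUB1B, the checkpoint protein BUBR1, rose as well without replicate 1 (0.36), while its level in replicate 1 was 68.9 CPM beside 144 and 151. BUB1 and MAD2L1 were lower there (-0.23 and -0.12), and TTK was not called.

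All 5 genes of anaphase onset and cohesion fell in HT-1080, by 1.38 to 2.18. UBE2C, the ubiquitin-conjugating enzyme of the anaphase-promoting complex, was at 105, 124 and 108 CPM in HT-1080 siNegative and 26.5, 27 and 24.4 in siHNRNPH1 (-2.18 ± 0.08). In HEK-293T it was at 69.2, 71.3 and 69.5 against 124, 72.3 and 68.8 CPM; replicate 1 was high and the other 2 were close to the controls. Its interaction was -2.59 ± 0.32 (edgeR adjusted p = 0.000354), the lowest of the set, but -2.19 without replicate 1, where MKI67 was lowest at -2.29. CDC20, activator of that complex, fell by 2.03 in HT-1080, and in HEK-293T replicate 1 it was at 248 CPM beside 130.1 and 123 in the other siHNRNPH1 libraries. SGO2, a shugoshin that protects centromeric cohesin, changed least of the class in HT-1080, from 50.5, 42.4 and 49.5 to 19.1, 17.8 and 20.4 CPM (-1.38). SGO1 (-1.76) and the separase inhibitor PTTG1 (-1.56) fell too; PTTG1 has the near copy PTTG2, so reads may have been split between them. Without replicate 1, CDC20 (-0.32), PTTG1 (-0.13) and SGO2 were lower and SGO1 higher in HEK-293T. With all 6 libraries the fold changes of CDC20 (0.12) and PTTG1 (0.38) were positive, and 0 of the class were called.

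All 7 kinetochore genes fell by more than 1 log2 unit in HT-1080. NUF2, which with NDC80, SPC24 and SPC25 forms the complex that grips microtubules, was at 43.3, 45 and 43.1 CPM in siNegative and 11.3, 11.9 and 11.8 in siHNRNPH1 (-1.97 ± 0.06, adjusted p = 7.3e-09 by edgeR). The other subunits of its complex fell too: NDC80 (-1.45), SPC24 (-1.62) and SPC25 (-1.48). ZWINT, which binds the outer kinetochore scaffold, changed least, from 63.8, 64.6 and 60.9 to 30.4, 31.5 and 30.1 CPM (-1.11 ± 0.05). In HEK-293T, NUF2 was at 60.2, 57.3 and 58.1 against 48.5, 47.7 and 51 CPM, below the control in every library, with -0.28 in the 6-library fit (adjusted p = 0.173) and -0.30 without replicate 1 (adjusted p = 5.32e-07, edgeR). Its interaction was -1.77 ± 0.12, and -1.72 without that library. CENPA, the histone variant that marks the centromere, was lower in HEK-293T in both fits, at 19, 18.6 and 18.7 CPM in siNegative and 13.9, 13 and 12 in siHNRNPH1. Without replicate 1, CENPA, NUF2, SPC24 and ZWINT were lower, and CENPF, NDC80 and SPC25 were not called. SPC24 was at -0.38 there but at 0.05 with all 6 libraries.

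The 9 kinesins fell in HT-1080 within a narrow range, from -1.70 (KIF23) to -1.11 (KIF18A). KIF23, the motor of centralspindlin, was at 117, 109 and 117 CPM in siNegative and 38.4, 36.5 and 36.1 in siHNRNPH1 (SE of the log2 fold change 0.05). KIF18A, which damps chromosome movement at the metaphase plate, went from 29.8, 28.4 and 31.8 to 14.5, 15.6 and 13.6 CPM. In HEK-293T, KIF23 showed how far replicate 1 reached: its siHNRNPH1 libraries held 101, 157 and 164 CPM against 141, 147 and 144 in siNegative, so the fold change was -0.06 with replicate 1 and 0.10 without it (adjusted p = 0.00872 by edgeR). Its partner RACGAP1 held 98.7, 141 and 148 CPM in the HEK-293T siHNRNPH1 libraries and 139.9, 139 and 139 in siNegative, with a log2 fold change of -0.00205 without replicate 1. Fold changes here are scaled by TMM and CPM values are not, so small differences can carry another sign. The other 8 kinesins were lower in HEK-293T without replicate 1, led by KIF2C (-0.31), KIF20A (-0.30) and KIF20B (-0.28), beside 31.3% of all genes. With all 6 libraries 0 of the 9 kinesins were called, and 1 had an unadjusted p under 0.05. KIF14, a kinesin of the central spindle, was at 19.9 CPM in replicate 1 and at 98.2 and 99.6 in the other 2. KIF4A has the near copy KIF4B, and its values are uncertain to that extent.

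Within the chromosomal passenger complex, the subunits fell to different degrees in HT-1080. Aurora B (AURKB) was at 67.6, 79.8 and 64 CPM in siNegative and 17.2, 17.8 and 16.5 in siHNRNPH1 (-2.10 ± 0.09). Borealin (CDCA8) went from 64.4, 61.7 and 62.2 to 18.2, 17.5 and 16 CPM (-1.93 ± 0.06), and survivin (BIRC5) fell by 0.93. INCENP, the scaffold, changed least of all 60 members, from 76, 61.6 and 79.9 to 47, 45 and 43.2 CPM (-0.75 ± 0.09, edgeR adjusted p = 3.98e-05); siNegative replicate 2 was the lowest control and still above every siHNRNPH1 library. CDCA8 had the smallest interaction p of the set, with -1.92 ± 0.12 (edgeR adjusted p = 5.03e-06), and -1.89 without replicate 1: in HEK-293T it was at 85, 83.3 and 84.8 in siNegative and 79, 82.5 and 82.1 CPM in siHNRNPH1, just below the controls. AURKB was lower in HEK-293T without replicate 1 (-0.27), as was CDCA8 (-0.09), while BIRC5 and INCENP were not called. INCENP in HEK-293T siHNRNPH1 held 33.5, 112 and 101 CPM, replicate 1 again low.

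The 7 genes of condensin and chromosome structure fell in HT-1080 and were mixed in HEK-293T, where 0 were called with all 6 libraries (1 at an unadjusted p under 0.05), and 3 were higher and 3 lower without replicate 1, beside 30.5% and 31.3% of all genes. In HT-1080, MKI67 (Ki-67, the coat of mitotic chromosomes) was at 495, 366 and 502 CPM in siNegative and 141, 132 and 127 in siHNRNPH1 (-1.84 ± 0.11). SMC2, an ATPase of condensin, went from 109.9, 86.7 and 109.5 to 51.9, 51.3 and 49.6 CPM (-1.07 ± 0.08), the least of the class. NCAPG, a subunit of condensin I, held 109, 108 and 108 against 39.1, 41.3 and 38.8 CPM there. In HEK-293T, MKI67 was at 411, 427 and 419.6 CPM in siNegative and 254, 578 and 571 in siHNRNPH1. Replicates 2 and 3 were thus above, and replicate 1 below, every control, and the fold change was 0.12 with replicate 1 and 0.40 without it (edgeR adjusted p = 1.79e-11). SMC2 (0.19) and SMC4 (0.14) rose in the same fit, TOP2A (-0.29), CDCA2 (-0.50) and NCAPH (-0.11) were lower, and NCAPG was not called. With all 6 libraries SMC2 was at -0.11 and SMC4 at -0.14. NCAPG held 149.7, 148 and 149 CPM in HEK-293T siNegative and 131, 149 and 156 in siHNRNPH1, which overlapped; its interaction was -1.52 ± 0.11, and -1.54 without replicate 1.

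Spindle assembly held the member that moved most in each line. TPX2, which activates Aurora A on spindle microtubules, was at 271, 269 and 279.7 CPM in HT-1080 siNegative and 63.9, 62.9 and 54.8 in siHNRNPH1 (-2.24 ± 0.06, edgeR adjusted p = 6.39e-09). In HEK-293T it was at 231, 235 and 226 against 139.6, 128 and 130.4 CPM, a gap that held in all 3 siHNRNPH1 libraries. HMMR, a spindle pole protein, was at 89.5, 87.3 and 89.3 CPM in HEK-293T siNegative and 39.9, 56.9 and 57.4 in siHNRNPH1, and fell by 1.39 in HT-1080. TACC3, a crosslinker of kinetochore fibres, changed least of the class in HT-1080, from 96.3, 106 and 102 to 55.6, 56.4 and 50.3 CPM (-0.97). In HEK-293T its sign turned on replicate 1: 276, 157 and 143 CPM in siHNRNPH1 against 173, 169 and 162 gave 0.18 with it and -0.22 without it (edgeR adjusted p = 4.95e-05). NUSAP1, which bundles spindle microtubules, held 68.6, 69.6 and 72 against 23.9, 25.6 and 24.8 CPM in HT-1080 and 124, 126 and 124 against 104, 109 and 116 in HEK-293T, with no overlap in either and an interaction of -1.43 ± 0.11 (-1.41 without replicate 1). The other 7 members of the class (ASPM, CKAP2, CKAP2L, DLGAP5, GTSE1, NEK2 and PSRC1) fell by 1.03 to 1.82 in HT-1080. Without replicate 1, ASPM (0.20) and the centrosome kinase NEK2 (0.17) were higher in HEK-293T, and DLGAP5 (-0.43) and PSRC1 (-0.22) lower. With all 6 libraries ASPM was at -0.22 and PSRC1 at 0.12, so their signs turned on replicate 1 too.

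The 3 cytokinesis genes fell by 1.14 to 1.52 in HT-1080. RACGAP1, the centralspindlin subunit beside KIF23, went from 150.2, 143 and 145 to 54.1, 55.3 and 51 CPM (-1.52 ± 0.05). ECT2, the exchange factor that activates RHOA at the cleavage furrow, went from 197, 176 and 194 to 88.6, 90.6 and 90.1 CPM (-1.14 ± 0.05). PRC1, which bundles the central spindle, fell by 1.46. In HEK-293T without replicate 1, ECT2 was lower (-0.12), and PRC1 (-0.05) and RACGAP1 were not called.

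**Figure D4:**
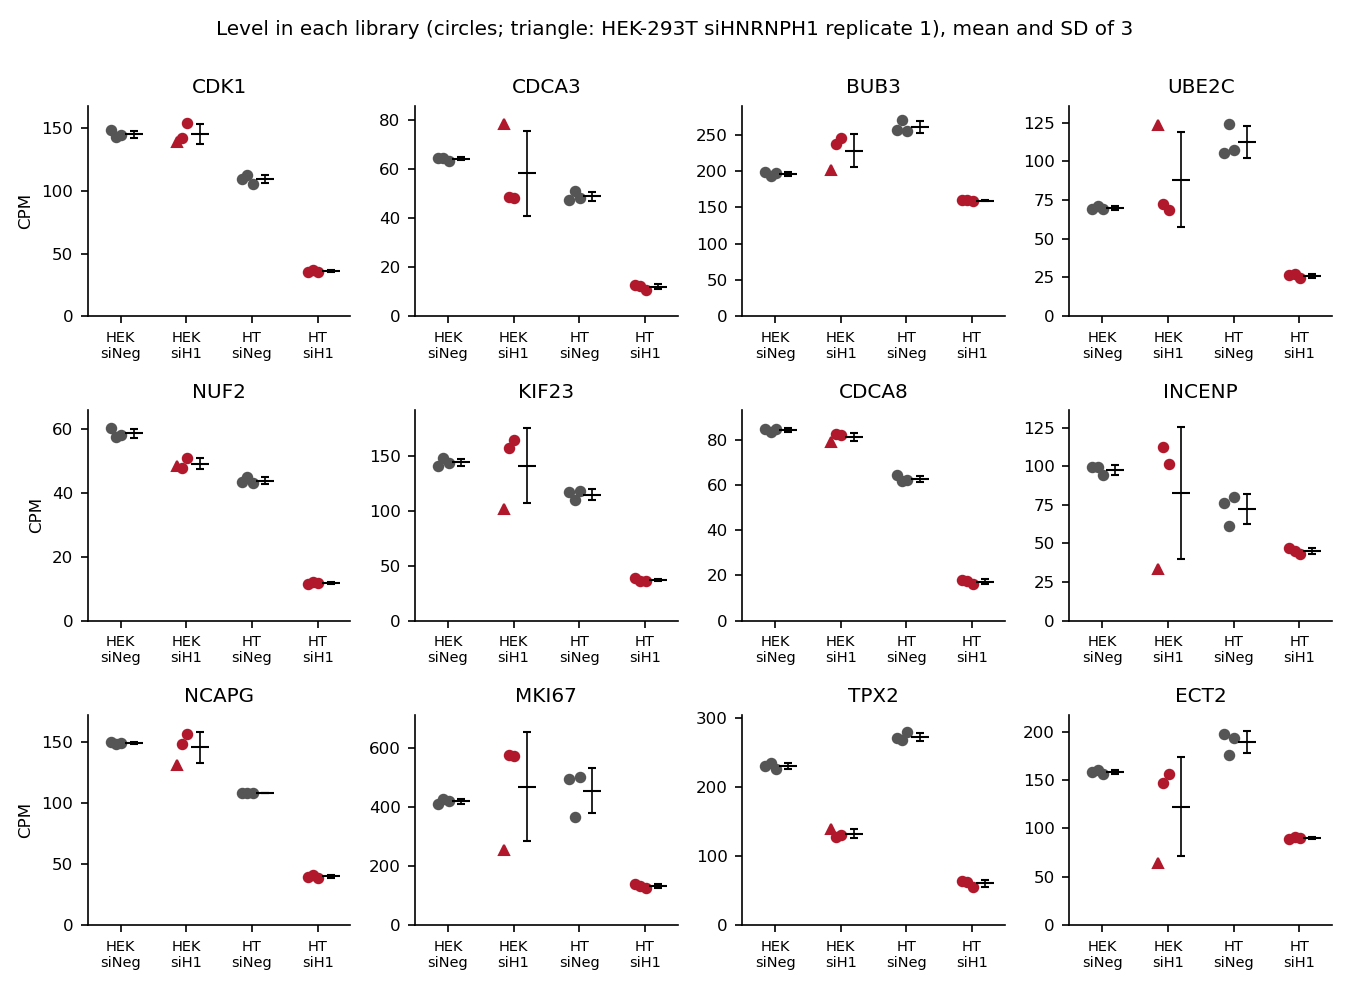
Level in CPM (vertical axis, from 0) of 12 members in each library of HEK-293T (HEK) and HT-1080 (HT) after siNegative (siNeg, grey) or siHNRNPH1 (siH1, red), with mean and SD of 3. The red points of HT-1080 lie below the grey ones in every panel, and the triangle, HEK-293T siHNRNPH1 replicate 1, lies far from its group for INCENP, MKI67, ECT2, UBE2C and CDCA3.

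Other genes of the same pathways were read from lists, whose counts stand beside the shares over all genes: 32.6% lower and 32.7% higher in HT-1080, 4.88% and 5.12% in HEK-293T, and 31.3% and 30.5% in HEK-293T without replicate 1. Of 30 further kinetochore genes, 26 were lower and 2 higher in HT-1080 (median -1.13), from HJURP, the chaperone of CENPA, at -2.30 to ZW10 at 1.27; in HEK-293T 1 was lower (SPDL1, -0.96, and -0.79 without replicate 1), and without replicate 1 13 were lower and 8 higher. Subunits and cofactors of the anaphase-promoting complex moved less: in HT-1080 8 of 17 were lower, 3 higher and 6 not called (median -0.16), with its inhibitor FBXO5 lowest at -1.77. In HEK-293T edgeR called 0 of the 17, with 1 at an unadjusted p under 0.05, and without replicate 1 it called 6 lower and 6 higher, close to the shares over all genes. Of 14 cohesin genes, 8 were lower and 2 higher in HT-1080 (median -0.29), led by separase (ESPL1, -2.63); ESPL1 was also the 1 lower gene in HEK-293T (-0.91, and -0.86 without replicate 1), where without that library there were 3 lower and 8 higher. Of 15 MuvB and DREAM regulators, 10 were lower and 2 higher in HT-1080 (median -0.54): MYBL2, which encodes B-MYB, was lowest at -1.98, and the MuvB subunit LIN37 highest at 0.67. In HEK-293T 1 of them was lower (E2F5, -1.24, and -1.40 without replicate 1), and without replicate 1 10 were lower and 4 higher. G1/S genes, which lack the CHR in nearly all entries above, fell in HT-1080 too: 32 of 32 were lower, with a median of -1.74, from ORC6 (-3.44) to cyclin E1 (CCNE1, -0.42). In HEK-293T 4 of the 32 were lower, with ORC6 at -1.49 (-1.44 without replicate 1), and without that library 20 were lower and 1 higher.

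Usage, or how a gene's expected counts divide among its transcripts, was tested with limma's diffSplice, taking the Simes p per gene and adjusting over all genes. In HEK-293T 9 of 59 testable members passed (15.3%), against 8.66% of all 13018 genes: CDC25C, PLK1, CDCA3, NUF2, ZWINT, KIF23, AURKB, BIRC5 and DLGAP5. Without replicate 1 the count was 28 of 59 (47.5%), against 39.7% of 13394 genes. In HT-1080 12 of 56 members passed (21.4%), close to the 19.7% of all 10752 genes: CDC25B, PLK1, FOXM1, CDCA3, BUB3, CENPA, ZWINT, BIRC5, SMC4, DLGAP5, ECT2 and RACGAP1. Without HT-1080 siNegative replicate 2 that count was 19, against 18.4% of all genes. The edgeR counterpart, diffSpliceDGE, called 1 member in HEK-293T (4 at an unadjusted p under 0.05) and 5 in HT-1080, against 5.12% of all genes in either line. Of the 56 members testable in both lines, PLK1, CDCA3, ZWINT, BIRC5 and DLGAP5 passed in both. The share of all genes that passed in both lines was not computed. Whether shared usage changes are more frequent among the members is therefore not known. With 3 libraries against 3, an exact two-sided permutation test of a single share cannot go below p = 0.1, and that p is given by shares whose groups do not overlap. The transcripts printed below were picked from these same libraries, so a lack of overlap in their shares is a description only.

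DLGAP5 (HURP, which stabilises kinetochore fibres) was the only 1 of these 5 in which the same transcript had the smallest p in each line. ENST00000395425.6 held 9.93, 9.85 and 9.23% of the gene in the HEK-293T siNegative libraries and 27.6, 18.5 and 20.1% in siHNRNPH1, and 8.73, 9.06 and 6.01% against 12.7, 16.8 and 11.1% in HT-1080. The groups did not overlap in either line, and replicate 1 was the highest of HEK-293T. In BIRC5, ENST00000350051.8 went from 84.1, 84.4 and 85.4% to 62.4, 62.6 and 62.6% in HEK-293T and from 82.9, 73.8 and 80.6% to 62.7, 61.9 and 67.3% in HT-1080. ENST00000374948.6 of BIRC5 was at 8.10, 8.55 and 7.94% against 22.6, 23.8 and 22.2% in HEK-293T and 8.31, 9.28 and 9.11% against 13.6, 15.8 and 10.0% in HT-1080. The 3 HEK-293T siHNRNPH1 libraries, replicate 1 included, lay close together for both BIRC5 transcripts.

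In ZWINT the transcript with the smallest p was not the same in the 2 lines, but ENST00000395405.5 had a larger share after siHNRNPH1 in both, with no overlap. That transcript was at 31.1, 28.9 and 29.2% in HEK-293T siNegative and 45.9, 46.3 and 48.5% in siHNRNPH1, and at 21.3, 21.6 and 17.4% against 25.2, 23.6 and 25.3% in HT-1080. ENST00000494312.5 was at 33.1, 37.9 and 37.5% against 16.3, 17 and 16.2% in HT-1080, while its HEK-293T groups overlapped (23.9, 23.5 and 25.5% and 21.4, 26 and 27.5%). In CDCA3, 2 minor transcripts had larger shares after siHNRNPH1: ENST00000545368.5 was at a mean of 2.08% and 9.70% in HEK-293T and 1.89% and 4.30% in HT-1080, and ENST00000535406.5 at 4.68% and 12% and at 3.62% and 8.33%, siNegative first. None of these groups overlapped. In PLK1 the shares were small: ENST00000564794.1 was at a mean of 0.121% and 0.560% in HEK-293T and 0.618% and 1.53% in HT-1080, and ENST00000562272.5 at 2.49% and 4.89% in HT-1080, with overlap in HEK-293T.

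Some larger shifts passed in 1 line only. In NUF2, ENST00000271452.8 held 43.3, 40.9 and 35.5% in HEK-293T siNegative and 72.6, 86.1 and 77.4% in siHNRNPH1, and 76.1, 72.1 and 81.7% against 90.6, 85.3 and 93.1% in HT-1080, where the gene missed the threshold (diffSplice adjusted p = 0.0567). In FOXM1, ENST00000342628.6 was at 8.16, 10.2 and 8.89% against 16, 34.7 and 28.6% in HT-1080 and 15.9, 15.9 and 14.9% against 20.2, 27.2 and 27.2% in HEK-293T, where it passed without replicate 1 only. Whether a shift differs between the lines was not tested. In ECT2, ENST00000437296.1 held 52.6% in HEK-293T siHNRNPH1 replicate 1 and 2.42% to 3.44% in the other 5 HEK-293T libraries, so that this library stands apart in transcript shares too.

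**Figure D5:**
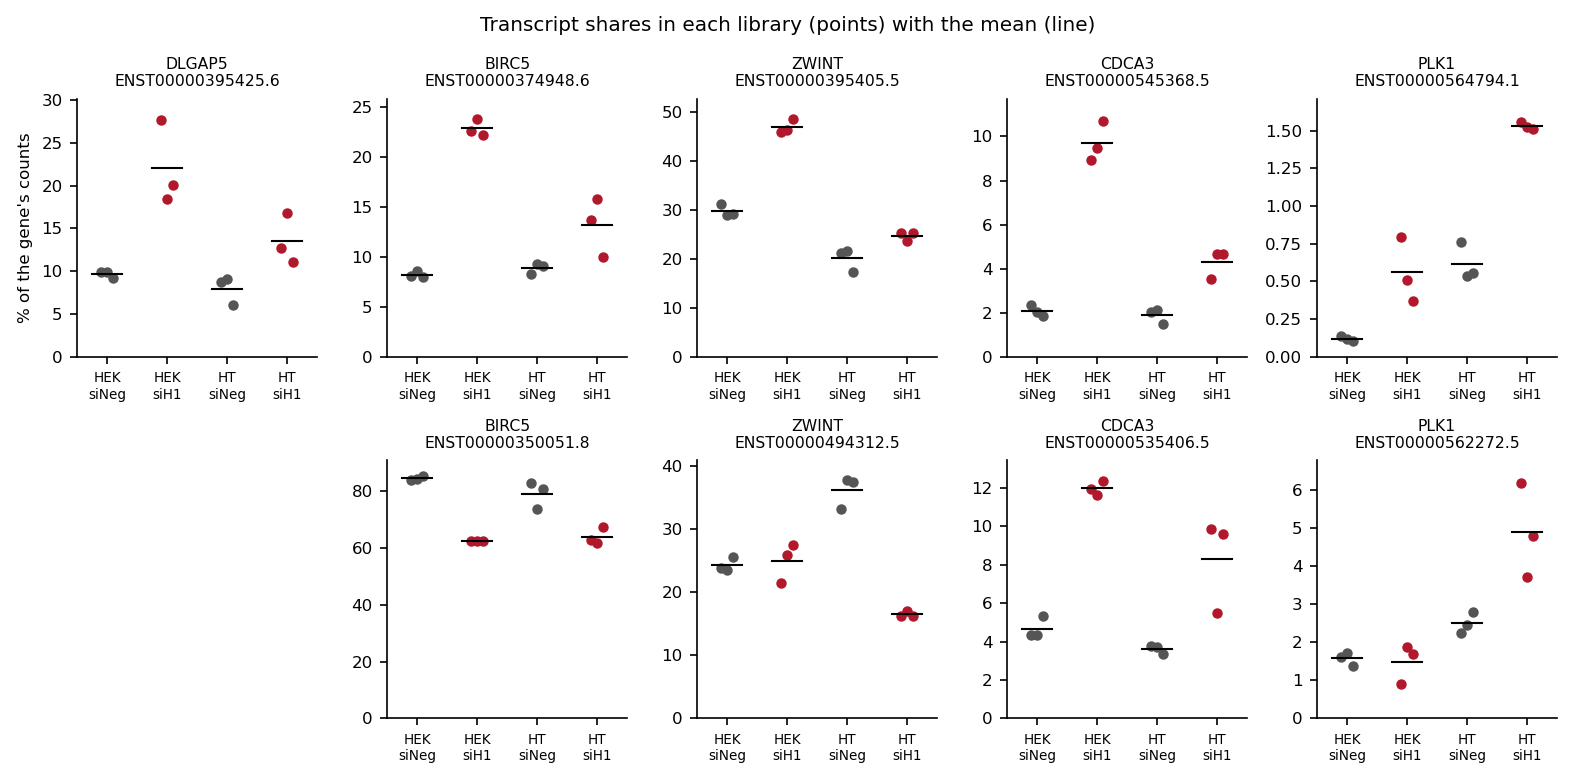
Percent of the gene's expected counts (vertical axis, from 0) held by 9 transcripts of the 5 members with changed usage in both lines, 1 point per library and a line at the mean, for siNegative (grey) and siHNRNPH1 (red). Grey and red points do not overlap except in HEK-293T for ENST00000494312.5 of ZWINT and ENST00000562272.5 of PLK1. Each transcript was picked for its small p in these same libraries, so the lack of overlap is not separate evidence.

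The IsoSeq pools gave a second library type, with 1 pool per group and no counts, so that each model counts once. Models at members were 717 of 72186 (0.993%) in HT-1080 siNegative and 349 of 68078 (0.513%) in siHNRNPH1, with fewer models in siHNRNPH1 for 54 members, as many for 6 and more for 0. In HEK-293T they were 816 of 64705 (1.26%) and 1222 of 94847 (1.29%), with fewer for 3 members and more for 53, in a pool that held more models in all. At the members with changed usage, junction shares rested on few models. In KIF23 the intron at chr15:69425324-69426069 (GRCh38.p13) was used by 10 of 40 spanning models (25%, exact Clopper-Pearson 95% interval 12.7% to 41.2%) in HEK-293T siNegative and 18 of 47 (38.3%, 24.5% to 53.6%) in siHNRNPH1, and by 7 of 27 and 4 of 10 in HT-1080. Upstream, the introns on both sides of 1 exon were used more often in the siHNRNPH1 models of both lines, and these are not independent results. The intron at chr15:69421753-69421991 was used by 32 of 39 (82.1%, 66.5% to 92.5%) and 41 of 41 (91.4% to 100%) in HEK-293T and by 24 of 27 and 9 of 9 in HT-1080. The intron at chr15:69422129-69422325 was used by 33 of 40 (82.5%, 67.2% to 92.7%) and 43 of 43 (91.8% to 100%) in HEK-293T and by 24 of 27 and 10 of 10 in HT-1080. In FOXM1 the intron at chr12:2859664-2864319 was used by 16 of 21 (76.2%, 52.8% to 91.8%) in HT-1080 siNegative and 8 of 13 (61.5%, 31.6% to 86.1%) in siHNRNPH1. These intervals cover counting error only, and with 1 pool per group no test between the pools was run. KIF23 and FOXM1 each passed the usage test in 1 line only. For the 5 members that passed in both lines, shared junction shifts, taken as the smaller of the 2 lines, were mostly small. The largest was 20 percentage points in PLK1 (2 of 5 and 6 of 10 models in HEK-293T), 4.17 in CDCA3, 2.71 in ZWINT, 2.27 in BIRC5 and 0 in DLGAP5.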

How the data were processed

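Short-read RNA-seq was read from 12 libraries and IsoSeq models from 4 pools. Per the submitters' processing notes, the authors estimated expected counts for each transcript with RSEM, on GRCh38.p13, and deposited them unscaled. The RSEM version, the aligner, the annotation and the strandedness are not given in the sources used here, so reads of overlapping or antisense genes cannot be told apart. The deposited IsoSeq files list exon coordinates of transcript models, with no counts. Groups came from the sample labels, and 0 columns of values stayed unmatched.

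Here these counts were added up by gene identifier and rounded. After filterByExpr they were scaled by TMM and tested per line with edgeR 4.0.16 (R 4.3.3), on 6 libraries, and on 12 for the interaction. Transcripts were tested with limma 3.58.1 (voom, diffSplice). Fold changes are log2, and CPM values divide by the library total. The functions were tested on simulated data. Replicates carry numbers, but the deviations of same-numbered libraries correlated only at -0.06 to 0.05, so no block entered the reported fits. In HEK-293T each library still correlated best with its own number, and a replicate block left 0 members called there. Pairs of replicates differed by more than sampling noise, so none was a copy.

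The members and lists were chosen with earlier results of these data known. Library values are printed for the members with the largest and smallest HT-1080 fold change per class, for the 5 with the smallest interaction p, for the extremes of each list, and for up to 5 members with changed usage in both lines; further members and transcripts were chosen after their values were seen. Alternatives were RLE or library-size scaling, DESeq2 1.42.0, no filter, a replicate block, a 12-library fit, a fold limit of 1 log2 unit, diffSpliceDGE, a minimum transcript share of 5%, and leaving out each library. Promoters came from a RefSeq table of GRCh38.p14, which held 52 of the 60 members.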

Additional observations from a re-analysis of the deposited data

Results flagged for a closer look

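The siRNA effect differed between the lines by the interaction test of edgeR (Benjamini-Hochberg adjustment over all genes) for 52 of the 60 members, each with a stronger fall in HT-1080. The differences in log2 fold change, HT-1080 minus HEK-293T, were -1.92 for CDCA8, -1.71 for CDK1, -1.77 for NUF2, -1.52 for NCAPG and -1.43 for NUSAP1, the 5 members with the smallest p. Without HEK-293T siHNRNPH1 replicate 1 they were -1.89, -1.69, -1.72, -1.54 and -1.41 in the same order, and all 60 passed. In HT-1080 all 3 siHNRNPH1 libraries were below siNegative for these 5 genes; in HEK-293T they were below it for CDCA8, NUF2 and NUSAP1 and overlapped with it for CDK1 and NCAPG. The lines were sequenced to different depths and cultured in different media, so line, depth and medium cannot be told apart.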

How the results depend on the processing

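In HT-1080 all 60 members stayed lower with RLE or library-size scaling, DESeq2, no filter, the replicate block and each library left out. The fold limit kept 55, with 2514 of all 16145 genes called, and the 12-library fit 59, with 6237 of 21276. The interaction count was 50 to 54 with another scaling, tool or filter or the block, and 49 to 60 with 1 library left out. Calls over all genes in these fits ran from 2535 to 5337 and from 2776 to 9535. In HEK-293T the 3 calls of edgeR stayed at 3 under RLE and library-size scaling, and became 8 with DESeq2, 8 in the 12-library fit, 1 without a filter, 0 with the fold limit and 0 with the replicate block, where 0 of all 19966 genes passed, 6 members had an unadjusted p under 0.05 and TPX2 stayed at -0.82. Over all genes, 3982 of 19966 were called with DESeq2, 4551 of 21276 in the 12-library fit and 1302 of 33482 without a filter. The 8 members of the 12-library fit were 7 lower and 1 higher (BUB3, 0.25). Leaving out 1 library gave 0 to 46 calls, 46 without siHNRNPH1 replicate 1 and 0 without any of the other 5, with 5 to 8 at an unadjusted p under 0.05; calls over all genes went from 1997 to 12557 without that library and to 0, 0, 20, 245 and 639 without the others. Without siHNRNPH1 replicate 1 the sign turned for 17 members, 10 of them called in that fit. These 10 included KIF23 (range -0.18 to 0.10 with 1 library left out), SMC2 (-0.32 to 0.19) and TACC3 (-0.22 to 0.36). The uncalled 7 included UBE2C (0.32 with all 6 libraries, range -0.05 to 0.48 with 1 left out), TTK (-0.12, range -0.27 to 0.08) and INCENP (-0.29, range -0.57 to 0.07). Usage calls in HEK-293T went from 9 to 1 with diffSpliceDGE, and 3 to 28 with 1 library left out; in HT-1080 they went from 12 to 5, and 8 to 19. Transcripts of at least 5% gave 9 calls in each line, and the replicate block 9 and 18. The share of all genes called moved too. In HEK-293T it was 8.66% in the main fit, 39.7% without siHNRNPH1 replicate 1 and 5.12% with diffSpliceDGE. In HT-1080 it was 19.7%, 18.4% without siNegative replicate 2 and 5.12% with diffSpliceDGE. For the other settings that share is not given here, so their counts are not read as a result about the members. Same-numbered libraries correlated at -0.06 to 0.05 in their deviations; in HEK-293T each correlated best with its own number, a hint from the data only. The causes of these changes were not tested. Precision is limited by 3 libraries per group, by the lower depth of HT-1080 for rare transcripts, and by few IsoSeq models per gene.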
